A study of Mus musculus with 8 samples.

Results

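Chemokine ligand genes were followed in whole colon in which Hedgehog (Hh) signalling had been switched on in stromal cells. The members were all genes whose symbol is Ccl, Cxcl, Cx3cl or Xcl followed by a number and at most 1 letter. Of 40 such symbols in the mouse RefSeq annotation, 34 could be read on the array, out of 22180 genes in all. The other 6 (Ccl19, Ccl21a, Ccl21b, Ccl21c, Ccl21d and Ccl27b) lay only on probe clusters that carry several gene symbols and were not analysed here. The Ptch1ΔCol1 mice carried Col1a2CreER and Ptch1fl/fl, and replicates 1 and 2 also carried the R26-LSL-tdTomato reporter. Col1a2CreER is a tamoxifen-dependent recombinase driven by the Col1a2 promoter, so that the receptor Ptch1, which restrains Hh signalling, is removed from collagen-producing stromal cells and not from epithelium. All 4 controls lacked Cre: replicates 1 and 2 were Ptch1fl/+, and replicates 3 and 4 carried R26-tdTomato. Every mouse received 5 mg of tamoxifen per 25 g intraperitoneally, and 7 days later a 1 cm segment of the distal colon was frozen. Each group held 3 females and 1 male (Ptch1ΔCol1 replicate 3 and control replicate 2), and their ages are not given in the labels.

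Chemokines are small secreted proteins that bind receptors on leukocytes and draw them along a gradient. Homeostatic chemokines are made constantly, mainly by stromal cells, and place lymphocytes within lymphoid tissue, which in the colon includes isolated follicles and patches. Inflammatory chemokines are induced by microbial products, tumour necrosis factor or interferons and recruit neutrophils, monocytes or effector T cells. Epithelial cells of the gut contribute further ligands that bring lymphocytes and plasma cells to the mucosa.

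Array medians over the genes analysed were 5.64 to 5.71 on the log2 scale, except for 5.54 in Ptch1ΔCol1 replicate 3. Mean signals over the same genes were 5.88 to 5.90 in all 8 mice. Ptch1ΔCol1 replicate 3 stood apart: its mean correlation with the other 7 arrays was 0.988, against 0.992 to 0.993 for the rest. Its mean log2 signal was the lowest of the 8 mice for the marker lists of fibroblasts (9.02), blood endothelium (7.21), and macrophages and monocytes (7.54). Its colon epithelium list was the highest (12.27), but Ptch1ΔCol1 replicate 2 was almost level with it (12.26). The Hh target Gli1 had log2 signals of 6.36 to 6.42 in the Ptch1ΔCol1 mice and 4.81 to 5.20 in the controls, a difference of 1.36 that passed the test (limma, adjusted p = 0.00203). Ptch1 itself was higher in Ptch1ΔCol1 colon (difference 0.82, adjusted p = 0.139) and is also an Hh target, so its level in whole tissue does not check the deletion.

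None of the 34 chemokine genes passed the test across all genes (limma, Benjamini-Hochberg adjusted p under 0.05), where 6 of 22180 genes (0.0271%) did. At an unadjusted p under 0.05 there were 5 members (14.7%), against 9.22% of all genes. Cxcl10, Cxcl12 and Ccl25 were lower in Ptch1ΔCol1 mice, and Ccl17 and Ccl4 were higher. For 4 members (11.8%), namely Cxcl10, Cxcl12, Ccl25 and Ccl17, every mouse of one group lay above every mouse of the other, as was the case for 5.37% of all genes. Of these, 1 member was higher and 3 were lower in Ptch1ΔCol1 mice, beside 2.47% and 2.9% of all genes. Counted by direction at the unadjusted level, 2 members were higher and 3 lower, where 4.31% and 4.91% of all genes were. In all, 20 members had a higher mean in Ptch1ΔCol1 colon and 14 a lower mean, with a median log2 difference of 0.04 against -0.01 over all genes. The difference was under 0.2 on the log2 scale in either direction for 20 of the 34, and 10 members had a mean signal below the 40th percentile of all genes (4.67), where array signals lie closest to background. Throughout, a log2 difference is the Ptch1ΔCol1 mean minus the control mean, and values per mouse are given for replicates 1 to 4 in order.

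**Figure D1:**
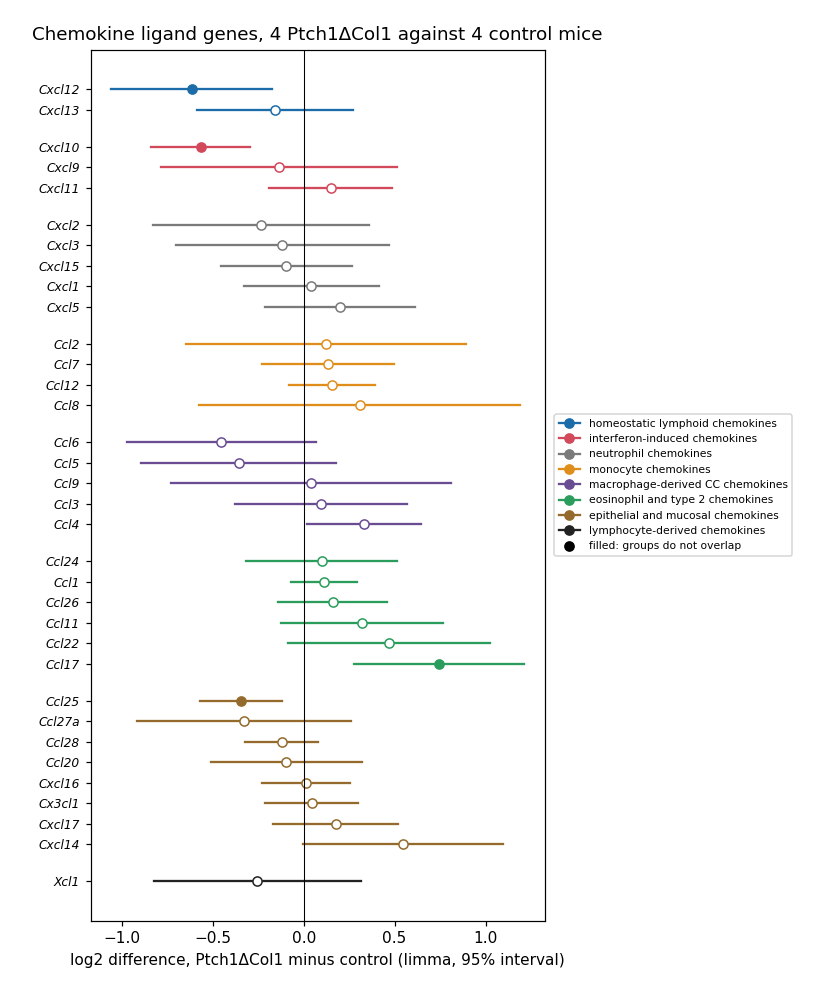
Log2 difference of 34 chemokine ligand genes between 4 Ptch1ΔCol1 and 4 control mice (x axis, limma estimate with its 95% interval), with genes on the y axis grouped by class. Filled points mark Cxcl12, Cxcl10, Ccl17 and Ccl25, the 4 genes without overlap of the groups, and most other intervals span 0.

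Cxcl12 and Cxcl13 were the homeostatic lymphoid chemokines that could be read. Cxcl12 is made by stromal and endothelial cells and binds Cxcr4 on lymphocytes, plasma cells and progenitors. Its log2 signals were 8.65, 8.11, 7.68 and 8.46 in the Ptch1ΔCol1 mice and 9.14, 8.74, 8.81 and 8.67 in the controls. The groups did not overlap, but the highest Ptch1ΔCol1 mouse (8.65) and the lowest control (8.67) were almost level. The means were 8.23 ± 0.43 and 8.84 ± 0.21 (SD, n = 4 each), a log2 difference of -0.61 (SE 0.20) or 1.53-fold lower signal. This did not pass across all genes (limma, adjusted p = 0.449), and the two-sided exact permutation p for the single gene was 0.029, the smallest that 4 against 4 mice can give. Without Ptch1ΔCol1 replicate 3 the difference was -0.43, and after a further quantile normalization the groups overlapped. Col1a2+ stromal cells are the cells in which Ptch1 was deleted, and the 6 fibroblast markers (Pdgfra, Col1a1, Col1a2, Dcn, Lum and Pdpn) had a median log2 difference of 0.10, or 0.30 without that mouse, with list means of 9.02 to 9.97 in Ptch1ΔCol1 mice and 9.24 to 9.62 in controls. In whole tissue, fewer cells of a type and less RNA per cell cannot be told apart. The receptors Cxcr4 (log2 difference -0.17) and Ackr3, a scavenger that removes Cxcl12 (0.09), did not pass at an unadjusted p under 0.05.

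The 250 bases before the start of Cxcl12 are shown because stromal cells, in which Ptch1 was deleted, are among those that make this ligand. Which cells made it in these samples was not measured. They were searched on both strands for GACCACCCA, the letters bound by Gli factors, which are the transcription factors of the Hh pathway. None was found in this window, nor in any of the 26 windows of the 23 members with a sequence, and 0.225% of 32851 mouse promoter windows of this length held one. The window (RefSeq, GRCm38.p6, chr6:117168285-117168534, plus strand) has no capitals because no searched motif lay in it.
Cxcl12: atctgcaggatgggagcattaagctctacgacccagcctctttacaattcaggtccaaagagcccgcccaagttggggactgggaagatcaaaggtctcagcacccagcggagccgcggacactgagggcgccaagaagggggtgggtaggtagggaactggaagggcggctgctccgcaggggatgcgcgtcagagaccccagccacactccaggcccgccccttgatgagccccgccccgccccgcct

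Cxcl13 is made by follicular stromal cells and draws B cells through Cxcr5. It was at 9.14, 9.24, 9.40 and 9.46 in Ptch1ΔCol1 mice and 9.57, 9.97, 8.92 and 9.41 in controls, so that the controls spanned the whole Ptch1ΔCol1 range. The log2 difference was -0.16, with a 95% interval of -0.59 to 0.27. Its receptor Cxcr5 was lower by a wider margin: 5.12, 4.51, 4.36 and 5.32 in Ptch1ΔCol1 mice against 5.64, 5.89, 4.99 and 5.91 in controls (log2 difference -0.78, SE 0.26, adjusted p = 0.449). The groups overlapped through control replicate 3. The B cell and follicle markers were lower in 9 of 9 measured genes (Ms4a1, Cd79a, Pax5 and others), 5 of them at an unadjusted p under 0.05, with a median log2 difference of -0.91 (-0.61 without Ptch1ΔCol1 replicate 3). Their mean log2 signal was 4.44 to 5.76 in Ptch1ΔCol1 mice and 5.07 to 6.77 in controls, again with control replicate 3 as the lowest control. Over all genes, 11597 of 22180 had a lower mean, and 4.91% were lower at an unadjusted p under 0.05. The B cell list was chosen with earlier results of these data known. The study ranks Pax5 and Fcmr (under its older symbol Faim3) among its most reduced genes on these same arrays. T cell markers were lower in 7 of 7 measured genes (median -0.27, and -0.10 without Ptch1ΔCol1 replicate 3), none of them at an unadjusted p under 0.05. The part of B cell content in the Cxcr5 difference was not tested.

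Lymphotoxin signalling maintains the stromal cells that make homeostatic chemokines. Ltb, which encodes the membrane anchor of lymphotoxin on lymphocytes, was at 5.12, 4.80, 4.16 and 5.54 in Ptch1ΔCol1 mice and 5.66, 6.55, 4.99 and 5.90 in controls (log2 difference -0.87, SE 0.35, adjusted p = 0.515). The order of the mice was that of the B cell list in both groups. The other 8 genes of the pathway (Lta, the receptor Ltbr, Tnf, Tnfsf11, Tnfrsf11a, Map3k14, Nfkb2 and Relb) differed by -0.13 to 0.17, none at an unadjusted p under 0.05.

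**Figure D2:**
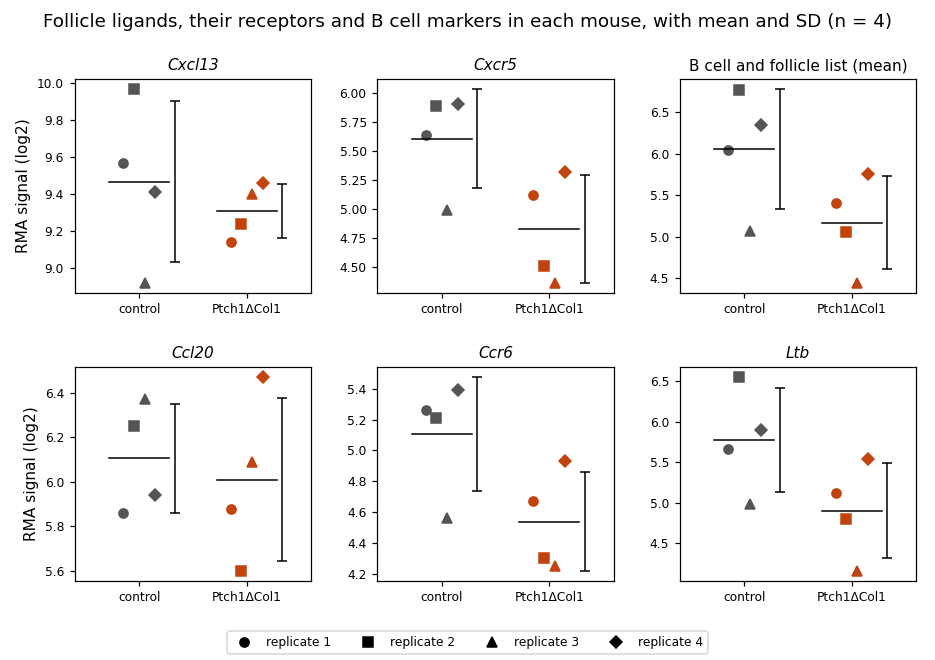
RMA signal (y axes, log2) in each of 4 control and 4 Ptch1ΔCol1 mice for Cxcl13, Ccl20, their receptors Cxcr5 and Ccr6, Ltb and the mean of the B cell and follicle list, with horizontal lines at the mean and bars for the SD. The ligands overlap between the groups, and the receptors, Ltb and the B cell list are low together in control replicate 3 and Ptch1ΔCol1 replicate 3.

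Of the interferon-induced chemokines, which share the receptor Cxcr3 on effector T and natural killer cells, Cxcl10 was lower in every Ptch1ΔCol1 mouse and its neighbours Cxcl9 and Cxcl11 were not. Cxcl10 signals were 4.88, 4.67, 4.68 and 4.83 in Ptch1ΔCol1 mice and 5.27, 5.49, 5.03 and 5.54 in controls. The Ptch1ΔCol1 mice lay within a narrow range close to 4.67, the 40th percentile of all genes, and the lowest control was above all of them. Whether signal near background narrowed that range was not tested. The means were 4.77 ± 0.11 and 5.33 ± 0.23 (SD, n = 4 each), a log2 difference of -0.57 (SE 0.12) or 1.48-fold, with an adjusted p = 0.290 across all genes and an exact permutation p of 0.029. Cxcl9 was at 5.66, 5.17, 4.25 and 5.20 against 5.05, 5.46, 4.70 and 5.61 (log2 difference -0.14, 95% interval -0.79 to 0.52), and its Ptch1ΔCol1 values ran from below to above all controls. Without Ptch1ΔCol1 replicate 3 the Cxcl9 difference turned to 0.14. Cxcl11, named after its values were seen, is annotated as a transcribed pseudogene in the C57BL/6J assembly and was at 4.64, 4.79, 4.98 and 4.59 against 4.56, 4.41, 4.40 and 5.04 (difference 0.15). Its mean signal over all mice was 4.68, also close to the 40th percentile. The Cxcl10 difference was set against that of each neighbour within the mice, as one of 8 pairs compared after the values were seen. The gap between Cxcl10 and Cxcl11 differed between the groups by -0.72 (SE 0.18, exact permutation p = 0.029, 0.114 after adjustment over the 8 pairs), and that between Cxcl10 and Cxcl9 by -0.43 (exact permutation p = 0.171).

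Other interferon-response genes were also lower on average in Ptch1ΔCol1 colon. Of 14 measured genes (Isg15, Ifit1, Irf7 and others), 13 had a lower mean, 2 of them at an unadjusted p under 0.05, with a median log2 difference of -0.31. Over all genes, 11597 of 22180 had a lower mean, and 4.91% were lower at that level. Ifit3, on this list, is among the genes that the study ranks as most reduced on these same arrays. The list mean was 7.38 in control replicate 4 and 6.55 to 6.74 in the other controls, beside 6.37 to 6.69 in the Ptch1ΔCol1 mice. Control replicate 4 also had the highest Cxcl10 signal. With 1 mouse left out, the Cxcl10 difference was between -0.668 (without control replicate 3) and -0.498 (without control replicate 4). The receptor Cxcr3 differed by -0.05 (95% interval -0.28 to 0.18), and cytotoxic lymphocyte markers were split 4 higher to 4 lower with a median of 0.00. The part of the interferon response in the Cxcl10 difference was not tested.

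The Cxcl10 promoter is shown because it holds the interferon-stimulated response element for which the gene is known. The letters GAAA, any 2 bases and GAAA again, searched on both strands, occurred in 2.98% of 32851 windows. Of the 23 members with a sequence, 2 held them, Cxcl10 and Cxcl14, and Cxcl9 did not. Cxcl11 had no sequence to search. In Cxcl10 the match lies 213 to 204 bases before the start and is set in capitals (RefSeq, GRCm38.p6, chr5:92348890-92349139, minus strand). A match of letters is a description and not a measured binding site.
Cxcl10: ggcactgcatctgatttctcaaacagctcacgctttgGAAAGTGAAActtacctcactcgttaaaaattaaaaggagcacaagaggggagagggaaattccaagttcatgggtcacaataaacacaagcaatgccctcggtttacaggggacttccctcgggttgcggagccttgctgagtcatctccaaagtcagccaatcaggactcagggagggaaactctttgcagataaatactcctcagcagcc

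All 6 chemokines of the eosinophil and type 2 class had a higher mean in Ptch1ΔCol1 mice, by 0.10 to 0.74, with Ccl17 at the top. Over all genes, 10415 of 22180 had a higher mean and 11597 a lower one. Ccl17, made by dendritic cells and a ligand of Ccr4 on type 2 helper and regulatory T cells, was at 5.25, 6.15, 5.28 and 5.54 in Ptch1ΔCol1 mice and 5.19, 4.84, 4.52 and 4.70 in controls. The groups did not overlap, although Ptch1ΔCol1 replicate 1 and control replicate 1 were 5.25 and 5.19. The means were 5.55 ± 0.42 and 4.81 ± 0.28 (SD, n = 4 each), a log2 difference of 0.74 (SE 0.21) or 1.67-fold, with an adjusted p = 0.405 across all genes and an exact permutation p of 0.029. Leaving out any single mouse kept it between 0.54 and 0.87.

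Ccl17 lies beside Cx3cl1 and Ccl22 on chromosome 8, with no other measured gene between them. Ccl22, the other Ccr4 ligand, is named here after its values were seen: it was at 4.26, 4.87, 4.86 and 4.52 in Ptch1ΔCol1 mice and 4.70, 4.48, 3.52 and 3.93 in controls (log2 difference 0.47, 95% interval -0.09 to 1.03). Its 2 R26-tdTomato controls were the lowest values and its 2 Ptch1fl/+ controls lay within the Ptch1ΔCol1 range, so the difference was 0.04 against Ptch1fl/+ controls alone and 0.90 against R26-tdTomato controls alone. Without control replicate 3 it was 0.26, and the mean signal of Ccl22 was below 4.67. The gap between Ccl17 and Ccl22 differed by 0.27 between the groups (exact permutation p = 0.286). Cx3cl1, the membrane-bound ligand of the macrophage receptor Cx3cr1, was at 8.65, 8.65, 8.79 and 8.42 against 8.56, 8.74, 8.34 and 8.69, a difference of 0.05 with an interval of -0.21 to 0.30. The receptor Ccr4, at a signal below 4.67 in every mouse, differed by 0.14. Dendritic cell markers were 4 higher and 3 lower, 1 of them higher at an unadjusted p under 0.05, with a median of 0.01, or 0.20 without Ptch1ΔCol1 replicate 3, and list means of 5.32 to 5.90 in Ptch1ΔCol1 mice and 5.49 to 5.75 in controls. Their part in the Ccl17 difference was not tested.

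The Ccl17 promoter is shown because this was the member with the widest positive difference. It held none of the motifs searched (RefSeq, GRCm38.p6, chr8:94810203-94810452, plus strand).
Ccl17: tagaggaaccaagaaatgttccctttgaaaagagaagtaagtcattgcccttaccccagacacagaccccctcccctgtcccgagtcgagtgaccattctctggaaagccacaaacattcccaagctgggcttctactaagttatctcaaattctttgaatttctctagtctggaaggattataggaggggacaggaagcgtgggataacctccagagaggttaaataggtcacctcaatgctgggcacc

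The eotaxins Ccl11 and Ccl24 recruit eosinophils through Ccr3. Ccl11, which is made by stromal cells, was at 7.72, 7.65, 7.27 and 7.13 in Ptch1ΔCol1 mice and 7.67, 6.79, 7.02 and 7.01 in controls (difference 0.32, 95% interval -0.13 to 0.77), with control replicate 1 inside the Ptch1ΔCol1 range. Ccl24 was at 5.61, 5.39, 5.32 and 4.64 against 5.33, 5.07, 5.14 and 5.02 (difference 0.10), a wider spread in Ptch1ΔCol1 mice than in controls. Ccl26 and Ccl1, like Ccl22, had mean signals below the 40th percentile of all genes. Of 4 eosinophil markers measured, 1 had a higher and 3 a lower mean, with a median difference of -0.08.

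**Figure D3:**
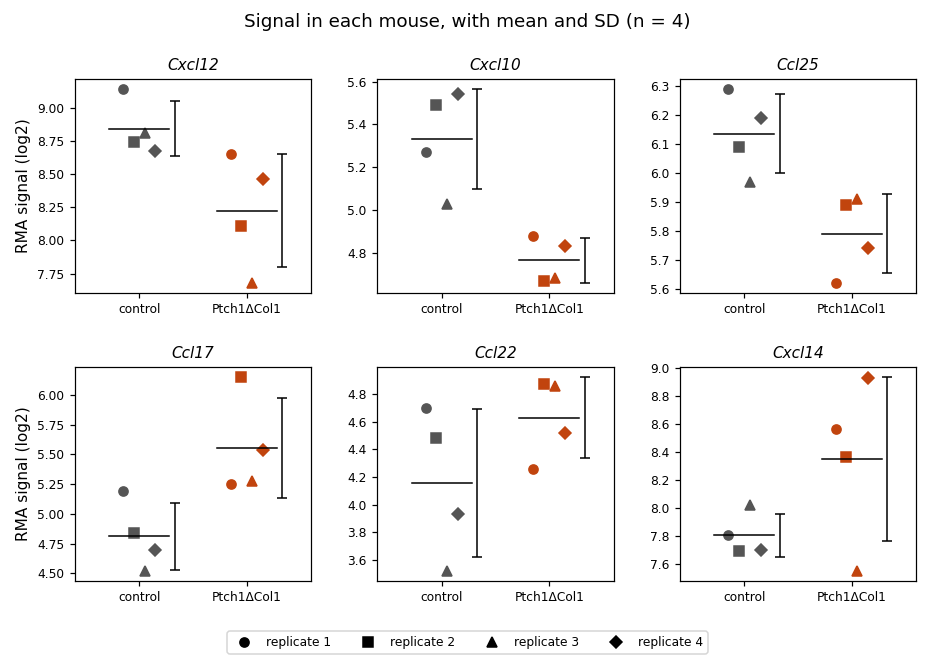
RMA signal (y axes, log2) of 6 chemokine genes in each of 4 control and 4 Ptch1ΔCol1 mice, with horizontal lines at the mean and bars for the SD. Cxcl12, Cxcl10 and Ccl25 are lower and Ccl17 is higher without overlap, while Ccl22 and Cxcl14 overlap.

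Among the epithelial and mucosal chemokines, Ccl25 was lower without overlap of the groups, and Cxcl14 and Ccl27a varied widely between mice. Ccl25 guides gut-homing lymphocytes through Ccr9 and is best known from the small intestine. It was at 5.62, 5.89, 5.91 and 5.74 in Ptch1ΔCol1 mice and 6.29, 6.09, 5.97 and 6.19 in controls, with 5.91 and 5.97 as the closest values of the groups. The difference was -0.34 (SE 0.10) or 1.27-fold, with an adjusted p = 0.415 and an exact permutation p of 0.029. The groups overlapped after quantile normalization and after centring on the array medians. Its receptor Ccr9, at a signal below 4.67 in every mouse, differed by 0.01 (95% interval -0.24 to 0.27). The colon epithelium markers were higher in 7 of 8 genes, by a median of only 0.05, and their list mean was 12.08 to 12.27 in Ptch1ΔCol1 mice and 12.11 to 12.15 in controls.

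Ccl28 draws IgA plasma cells to mucosa through Ccr10. It was at 10.66, 10.95, 10.78 and 10.73 in Ptch1ΔCol1 mice and 10.87, 11.03, 10.86 and 10.84 in controls, a difference of -0.12 with an interval of -0.32 to 0.08. Cxcl14, named after its values were seen, is made by epithelium and fibroblasts and has no settled receptor. It was at 8.56, 8.36, 7.55 and 8.93 in Ptch1ΔCol1 mice and 7.81, 7.69, 8.02 and 7.70 in controls. The females among the Ptch1ΔCol1 mice were above every control, and the male replicate 3 was below every control. The difference was 0.55 (SE 0.25, adjusted p = 0.546), 0.81 without that mouse and 0.35 without Ptch1ΔCol1 replicate 4, the highest. Cxcl14 lies on chromosome 13, as does Ptch1, with 76 measured genes between them.

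Ccl20, the ligand with which epithelium over lymphoid follicles attracts Ccr6+ cells, differed by -0.10 (range 5.60 to 6.47 in Ptch1ΔCol1 mice and 5.86 to 6.37 in controls). Its receptor Ccr6 was at 4.67, 4.30, 4.25 and 4.93 against 5.26, 5.21, 4.56 and 5.39 (difference -0.57, SE 0.20, adjusted p = 0.480). Control replicate 3 was once more the only control within the Ptch1ΔCol1 range. The order of the Ptch1ΔCol1 mice was that of the B cell list. In controls it was not, since control replicate 2 had the highest B cell list mean (6.77) but not the highest Ccr6. The study ranks Ccr6 among its most reduced genes on these same arrays. The part of B cell content in the Ccr6 difference was not tested. Cxcl16 and Cxcl17 differed by 0.01 and 0.18, the latter at a mean signal below 4.67. Ccl27a differed by -0.33, and its second probe cluster by 0.25, so that the probes gave opposite signs. The first was between -0.54 (without Ptch1ΔCol1 replicate 2) and -0.08 (without Ptch1ΔCol1 replicate 3).

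The neutrophil chemokines, ligands of Cxcr2, showed no common direction: 2 of 5 had a higher and 3 a lower mean, by -0.24 to 0.20, and none was past an unadjusted p of 0.05. Cxcl2 was at 5.73, 4.83, 4.31 and 4.75 in Ptch1ΔCol1 mice and 5.13, 4.84, 5.50 and 5.09 in controls, with replicate 1 of the Ptch1ΔCol1 mice above every other mouse and replicate 3 below. Cxcl5 was at 5.27, 4.75, 5.20 and 4.69 against 5.07, 4.35, 4.95 and 4.74. The groups overlapped in both genes, with 95% intervals of -0.83 to 0.36 for Cxcl2 and -0.21 to 0.61 for Cxcl5. Cxcl1, Cxcl3 and Cxcl15 had mean signals below 4.67. The receptor Cxcr2 was at 3.99, 4.36, 4.06 and 3.84 in Ptch1ΔCol1 mice and 4.25, 4.20, 4.45 and 4.55 in controls (difference -0.30, SE 0.13, adjusted p = 0.530). Neutrophil markers, by contrast, had higher means in 7 of 8 genes (median 0.36), none at an unadjusted p under 0.05, and their list mean was highest in Ptch1ΔCol1 replicate 2 (5.95, against 4.39 to 4.92 in the other 7 mice).

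Cxcl1, Cxcl2 and Cxcl3 lie close together on chromosome 5 and are induced through NF-kB. They are shown side by side because, of the 23 members with a promoter sequence, only they held the NF-kB letters GGGA, any base and TTTCC. These letters, searched on both strands, were held by 0.356% of all windows. Looser forms of the site were not searched, and Cxcl5 and other members had no sequence to search. The 50 bases around the match, in capitals, are given from RefSeq, GRCm38.p6, plus strand: Cxcl3 at chr5:90786008-90786057, Cxcl1 at chr5:90891154-90891203 and Cxcl2 at chr5:90903782-90903831. The match is the same 10 letters in each, and 29 of 50 bases were identical between Cxcl1 and Cxcl2, 25 between Cxcl1 and Cxcl3, and 21 between Cxcl2 and Cxcl3.
Cxcl3: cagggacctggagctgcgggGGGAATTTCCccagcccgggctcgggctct
Cxcl1: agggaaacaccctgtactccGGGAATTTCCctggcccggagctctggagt
Cxcl2: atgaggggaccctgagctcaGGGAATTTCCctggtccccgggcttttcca

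The platelet chemokines Ppbp and Pf4 sit in the same stretch of chromosome 5 and are stored in platelet granules. Ppbp was at 4.74, 5.76, 5.63 and 4.74 in Ptch1ΔCol1 mice and 4.71, 3.91, 4.33 and 4.40 in controls. The groups did not overlap, but 4.74 and 4.71 were nearly level, and the difference was 0.88 (SE 0.26, adjusted p = 0.418, exact permutation p = 0.029). The study ranks Ppbp among its most raised genes on these same arrays. Pf4 differed by 0.23, and the 4 platelet and megakaryocyte markers measured were split 2 to 2 with a median of 0.09. Their list mean was 4.64 to 4.97 in Ptch1ΔCol1 mice and 4.66 to 4.79 in controls.

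The 4 monocyte chemokines all had higher means in Ptch1ΔCol1 colon, by 0.12 to 0.31, but individual mice spread far more widely than that. Over all genes, 10415 of 22180 had a higher mean. Ccl12, 1 of the 4, had a mean signal below 4.67. Ccl8, a stromal and macrophage product, was at 7.88, 7.60, 6.30 and 6.89 in Ptch1ΔCol1 mice and 7.78, 6.24, 6.98 and 6.44 in controls. Ccl2, the main ligand of the monocyte receptor Ccr2, was at 6.64, 6.67, 5.40 and 6.08 against 6.86, 5.44, 5.77 and 6.23. In both genes Ptch1ΔCol1 replicates 1 and 2 and control replicate 1 were the 3 highest mice, and Ptch1ΔCol1 replicate 3 and control replicate 2, the males, were the lowest. The differences were 0.31 (95% interval -0.58 to 1.19) for Ccl8 and 0.12 (-0.65 to 0.89) for Ccl2. Single mice moved both: Ccl8 was between 0.07 (without Ptch1ΔCol1 replicate 1) and 0.61 (without control replicate 1), and Ccl2 between -0.09 (without control replicate 2) and 0.39 (without Ptch1ΔCol1 replicate 3). Ccl2, Ccl7, Ccl11, Ccl12 and Ccl8 follow each other on chromosome 11 with no other measured gene between them, and Ccl11 had its 3 highest values in the same mice. The macrophage and monocyte markers were split 5 to 5, with a median of 0.01. Without Ptch1ΔCol1 replicate 3 their median was 0.20, and that of the 4 monocyte chemokines went from 0.15 to 0.31. The part of these cells in the chemokine values was not tested.

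The macrophage-derived CC chemokines Ccl3, Ccl4, Ccl5, Ccl6 and Ccl9, some of which T cells also make, were likewise mixed. Ccl4 was at 3.68, 3.97, 3.99 and 3.81 in Ptch1ΔCol1 mice and 3.86, 3.49, 3.59 and 3.19 in controls (difference 0.33, SE 0.14, adjusted p = 0.530). All of its values were below 4.67. Ccl6, a constitutive chemokine of mouse myeloid cells, was at 9.59, 9.59, 8.43 and 9.32 against 9.71, 9.49, 9.79 and 9.75 (difference -0.45, 95% interval -0.97 to 0.07), and -0.19 without the low replicate 3. Ccl9 was at 8.58, 9.0, 7.18 and 7.73 against 8.31, 7.78, 8.28 and 7.96, a difference of 0.04 with Ptch1ΔCol1 mice at both ends of the range. Ccl3 differed by 0.10. Ccl5 differed by -0.36, by -0.17 without Ptch1ΔCol1 replicate 3, by -0.20 without control replicate 2 and by -0.02 in females only. Xcl1, which T and natural killer cells release for cross-presenting dendritic cells, was at 4.39, 4.31, 3.39 and 4.76 against 4.29, 4.67, 4.67 and 4.24 (difference -0.26), and its difference was 0.02 without Ptch1ΔCol1 replicate 3. Its mean signal, too, was below 4.67.

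Mice differed among themselves across many members. Ptch1ΔCol1 replicate 3 was the lowest of the 8 mice for 11 of the 34 members and control replicate 2 for 7, while Ptch1ΔCol1 replicate 1 was the highest for 8. The mean log2 signal over the 34 members was 5.70 in Ptch1ΔCol1 replicate 3 and 5.86 to 6.03 in the other 7 mice.

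**Figure D4:**
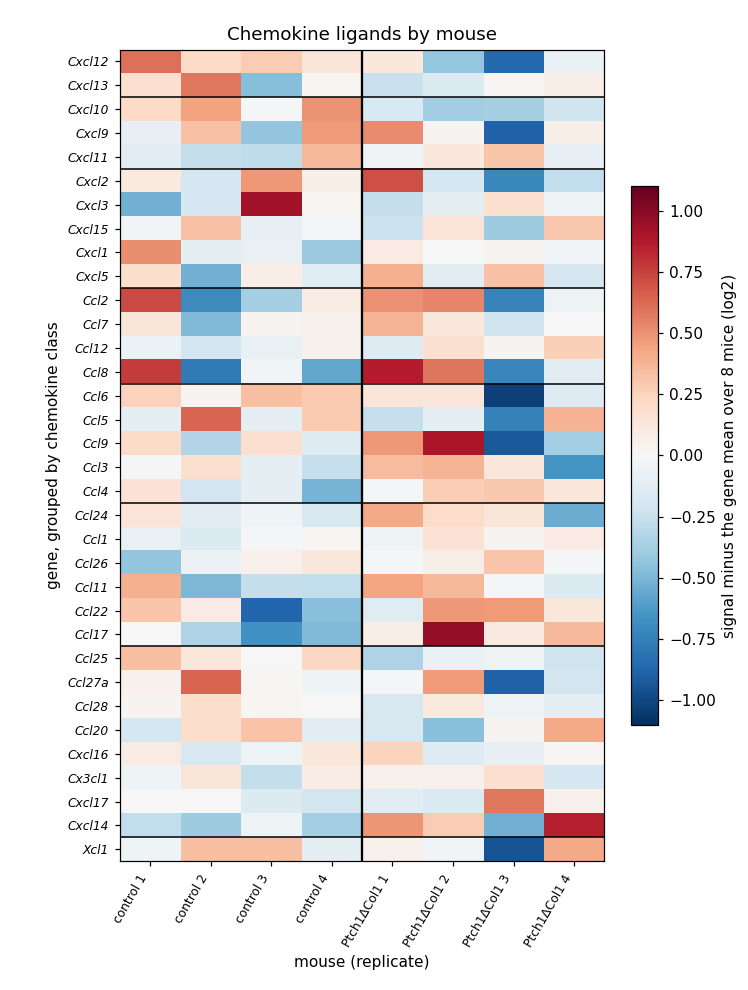
Log2 signal of 34 chemokine genes (y axis, grouped by class) in each mouse (x axis), as the difference from the mean of that gene over the 8 mice (colour scale). Cxcl10 is above its mean or level with it in the 4 controls and below it in the 4 Ptch1ΔCol1 mice, and replicate 3 of the Ptch1ΔCol1 mice has the lowest values of 11 genes.

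The receptors were, on the whole, at slightly lower means. Of 17 measured chemokine receptors, 4 had a higher and 13 a lower mean (median -0.13, range -0.78 to 0.21), and none passed across all genes. Past an unadjusted p of 0.05 were Cxcr5, Ccr6 and Cxcr2, all lower as given above (Cxcr2 at a mean signal below 4.67), where 4.91% of all genes were lower at that level. Without Ptch1ΔCol1 replicate 3 the median over the receptors was 0.02. Of the 5 atypical receptors, which bind chemokines without moving cells, 4 were lower. Ackr4, which removes Ccl19, Ccl21 and Ccl25, was at 3.52, 3.61, 3.15 and 3.72 in Ptch1ΔCol1 mice and 4.18, 3.68, 3.90 and 4.20 in controls, with control replicate 2 below the highest Ptch1ΔCol1 mouse (difference -0.49, SE 0.15, adjusted p = 0.442). All of its values were below 4.67. Lymphatic endothelium markers were lower in 5 of 6 genes (median -0.29, and -0.04 without Ptch1ΔCol1 replicate 3), and their part in the Ackr4 difference was not tested.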

How the data were processed

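Whole-colon RNA of 4 Ptch1ΔCol1 mice and 4 controls was measured on 1-colour Affymetrix Mouse Gene ST 2.0 arrays. The deposited values are log2 signals that the authors normalized by robust multi-array average (RMA) with median polish, a step that pulls the arrays to a common distribution. For that step, software, version and annotation: not given in the sources used here. No further scaling was applied. Of 41345 transcript clusters (probe sets), 23521 carried 1 gene symbol and 23328 of these were matched to RefSeq (GRCm38.p6) by gene ID. Left out were 1820 clusters that carried several symbols and 16004 that carried none. Of genes with several clusters (1082), the brightest was kept, which gave 22180 genes.

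The linear model of limma 3.58.1 (R 4.3.3; lmFit, then eBayes, no covariate, Benjamini-Hochberg adjustment over all 22180 genes, threshold 0.05) gave the differences between groups, after it was tested on simulated data. The simulated differences were 1 and 2 on the log2 scale, wider than that of any member. They do not show how often differences of the size seen in the members would be found. For single genes, all 70 relabellings of the mice gave an exact permutation p (two-sided, smallest value 0.029). Groups without overlap always give that smallest value, so it adds nothing to the lack of overlap. Each array is 1 animal, and precision is limited by how few there are. Genes were named if their unadjusted p was under 0.05, if their groups did not overlap, or if they were among the 2 brightest of their class. Ccl17, Cxcl10 and Cxcl12 were also named because the study lists them among its highest and lowest ranked genes. That list also holds Ppbp and Ccr6, was drawn from these same arrays and is not independent of them. Of the receptor, platelet and lymphotoxin lists, up to 6 genes under the same limits were named. Other genes, among them Ccl20, Ccl27a, Ccl5, Ccr4, Ccr9 and Cxcr3, are described although they met none of these limits. Members, classes and marker lists were chosen with earlier results of these data known. Marker lists not described in the results had median log2 differences of 0.14 (smooth muscle, 6 of 6 higher) and -0.03 (blood endothelium, 2 of 6 higher, and 0.17 without Ptch1ΔCol1 replicate 3). The smooth muscle list means did not overlap, at 12.15 to 12.26 in Ptch1ΔCol1 mice and 11.90 to 12.09 in controls. Of the 6 smooth muscle genes, 3 were higher without overlap and 2 were higher at an unadjusted p under 0.05. Over all genes, 2.47% and 4.31% were. The part of smooth muscle content in the chemokine values was not tested. Promoter windows were the 250 bases before each RefSeq start.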

Additional observations from a re-analysis of the deposited data

Results flagged for a closer look

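Of 80 sets of 4 mice checked (1 gene in 1 group), 2 held a mouse that stood further from the other 3 than Dixon's 95% limit allows, and chance alone gives about 1 in 20. Both were control replicate 2. Ccl27a was at 5.97 in that mouse and at 5.29 to 5.38 in the other controls, with a gap of 0.868 of the range. Ccl28 was at 11.03 and at 10.84 to 10.87 in the other controls, with a gap of 0.842 of the range.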

How the results depend on the processing

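Under 20 alternatives (other normalizations, variance models, covariates, control subsets, probe summaries and each mouse left out) no chemokine gene passed across all genes, and the smallest adjusted p was 0.165. Of 670 member values, 629 kept the sign of the difference, and 17 members never changed it. The count of members without overlap was 4, and 2 after quantile normalization (Ccl17 and Cxcl10, beside 5.66% of all genes). It was 3 after centring on the array medians (4.72% of all genes) and 6 in females only (16.6%). Against Ptch1fl/+ controls alone it was 8 (13.6%), and against R26-tdTomato controls alone 9 (15.8%). With 1 mouse left out it was 4 to 7, beside 7.60% to 10.4% of all genes. The count of 7 came without control replicate 1, where the share of all genes was 7.60%. Fits with covariates, weights, a block or another variance model give no overlap count. Signs changed against Ptch1fl/+ controls alone (Ccl3 -0.032, Cx3cl1 -0.022, Cxcl1 -0.182, Cxcl3 0.30), against R26-tdTomato controls alone (Ccl26 -0.01, Cxcl13 0.14, Cxcl15 0.003, Cxcl16 -0.025), with array weights (Cxcl1 -0.002, Cxcl15 0.002, Cxcl16 -0.01, Cxcl9 0.002) and in females only (Ccl27a 0.073, Cxcl15 0.11, Cxcl16 -0.01, Cxcl5 -0.017, Cxcl9 0.22, Xcl1 0.087). With 1 mouse left out, differences ranged over zero for Ccl2 (-0.089 to 0.39), Ccl3 (-0.014 to 0.33), Ccl7 (-0.003 to 0.23), Ccl9 (-0.25 to 0.35), Ccl20 (-0.25 to 0.042), Ccl24 (-0.023 to 0.30), Cx3cl1 (-0.036 to 0.11), Cxcl1 (-0.088 to 0.22), Cxcl3 (-0.31 to 0.17), Cxcl9 (-0.33 to 0.14), Cxcl13 (-0.34 to 0.01), Cxcl15 (-0.21 to 0.019), Cxcl16 (-0.067 to 0.063) and Xcl1 (-0.44 to 0.019). The causes were not tested. Same-numbered mice share only a number: the correlation of their deviations was -0.05 to 0.03, and a replicate block called 0 members and 3 genes in all, against 6. Precision is limited by 4 mice a group and, for the 10 dim members, by signal near background.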
